A study of Mus musculus with 6 samples.

Results

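Heat shock proteins, their cochaperones and the chaperonins help other proteins fold, keep them from clumping and pass damaged ones on for degradation. The 34 mouse genes described here were listed by name: the heat shock transcription factor *Hsf1*, 7 genes of the Hsp70 family, 3 of the Hsp110 family, 2 of the Hsp90 family, 3 small heat shock proteins, 2 subunits of the mitochondrial chaperonin, 6 J-domain proteins, 6 cochaperones and 4 subunits of the cytosolic chaperonin. They make up 34 of the 55573 gene identifiers in the count table. All 34 passed the filter on low counts. The list was named after cytosolic proteins, but *Hspd1*, *Hspe1* and *Hspa9* encode mitochondrial chaperones and *Hspa13* a microsomal one.

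The counts came from RNA-Seq of cells sorted from the retinas of adult C57BL/6J mice of both sexes. The control group had received AAV2-*GFP* in the vitreous body (GFP replicates 1 to 3) and the overexpression group AAV2-*Ezh2* (Ezh2 replicates 1 to 3). Both groups underwent optic nerve crush (ONC) 2 weeks past the injection, and CD90.2-positive live cells were sorted 3 days after ONC to enrich retinal ganglion cells (RGCs), whose axons form the optic nerve. Retinas had been digested with papain before the sort. *Ezh2* encodes the methyltransferase of the Polycomb complex PRC2. The promoter behind the transgenes and the number of mice per library were not given in the sources used here, AAV2 in the vitreous is not restricted to RGCs, and CD90.2 is also found on T cells.

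Hsp70 proteins bind unfolded stretches of other proteins in a cycle driven by ATP. J-domain proteins start the cycle by stimulating ATP hydrolysis, and Hsp110 and BAG proteins end it by exchanging the nucleotide. Hsp90 takes over partly folded kinases and receptors with the help of cochaperones, and the chaperonins enclose their substrates in a chamber. Under heat, oxidation or toxic stress HSF1 binds heat shock elements, repeats of nGAAn in alternating direction, and raises the inducible members, while the constitutive members serve everyday folding. In the retina the small heat shock proteins are known for their rise after injury in glia and neurons.

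Whether the members could be told apart by such elements near their starts was described first, because the comparison below divides them into inducible and constitutive genes. RefSeq promoter windows (GRCm38.p6), which run from 250 bases before to 50 bases after each start, were found for 27 of the 34 members. A 3-unit element (GAANNTTCNNGAA or TTCNNGAANNTTC, each searched on both strands) lay in the windows of 5 of these members (18.5%), against 0.662% of all genes with a window. A 2-unit element (GAANNTTC or TTCNNGAA, which the 3-unit element contains) lay in 15 of 27 members (55.6%), against 17.0% of all genes. Of the 14 inducible members with a window, 11 held a 2-unit element, as did 4 of the 12 constitutive ones. The 3-unit holders were *Hspd1* and *Hspe1*, which face each other across a shared start region, *Hsph1*, *Chordc1* and *Dnajb6*. Their elements are shown in capitals within the bases around them.
Hspe1, chr1:55088053-55088082, plus strand: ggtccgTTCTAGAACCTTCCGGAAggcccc
Chordc1, chr9:18292260-18292288, plus strand: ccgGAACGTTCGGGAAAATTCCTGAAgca
Hsph1, chr5:149636280-149636308, minus strand: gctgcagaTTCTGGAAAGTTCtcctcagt
Dnajb6, chr5:29735844-29735872, plus strand: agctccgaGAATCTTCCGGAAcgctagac

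The stretches before the starts of the most strictly stress-induced members, *Hspb1*, *Hspa1a* and *Hspa1b*, are shown next, with 2-unit elements in capitals. *Hspa12a* follows because it was the member with the largest difference between the groups. The *Hspa12a* stretch lies within the span of the antisense gene *Eno4*. The gene *Hspa12a* also has another promoter window, which is not shown. The 150 bases before *Hspa1a* and *Hspa1b* were identical at 149 positions, so that the 2 genes are near copies in their promoters as well as in their transcripts.
Hspb1, chr5:135887789-135887838, plus strand, bases -130 to -81 from the start: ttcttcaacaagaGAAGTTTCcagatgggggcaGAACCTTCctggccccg
Hspa1a, chr17:34972157-34972306, minus strand, bases -150 to -1: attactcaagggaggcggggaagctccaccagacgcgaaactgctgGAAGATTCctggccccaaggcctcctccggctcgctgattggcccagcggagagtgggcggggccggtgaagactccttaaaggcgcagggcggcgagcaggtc
Hspa1b, chr17:34959239-34959388, minus strand, bases -150 to -1: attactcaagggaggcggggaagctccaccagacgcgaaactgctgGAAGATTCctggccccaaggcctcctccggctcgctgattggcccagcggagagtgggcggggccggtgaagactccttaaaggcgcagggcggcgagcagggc
Hspa12a, chr19:58943673-58943822, minus strand, bases -150 to -1: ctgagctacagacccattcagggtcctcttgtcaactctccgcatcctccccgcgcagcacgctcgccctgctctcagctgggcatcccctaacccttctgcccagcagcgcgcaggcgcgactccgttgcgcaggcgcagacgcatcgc

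The members covered a range of levels of more than 100-fold. Levels between genes were compared per length as TPM, which divides each count by the summed exon length of the gene and rescales the libraries to a common total. In the GFP libraries *Hsp90ab1*, the constitutive cytosolic Hsp90, was the highest at 862 ± 26.1 TPM (SD, n = 3), followed by *Hspa8*, the constitutive Hsp70 known as Hsc70, at 637 ± 16.6 TPM. *Hsp90aa1*, the inducible Hsp90, reached 278 ± 12.2 TPM, and *Cryab*, the small heat shock protein alphaB-crystallin, 236 ± 10.8 TPM. The stress-inducible Hsp70 genes were near the bottom: *Hspa1b* at 12.9 ± 1.21 TPM and *Hspa1a* at 9.81 ± 0.698 TPM, with *Hspb8* the lowest at 7.60 ± 0.820 TPM. The *Hspa1b*, *Hspa2* and *Hspb1* means lay within about 1 SD of each other, so their order is not resolved.

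**Figure D1:**
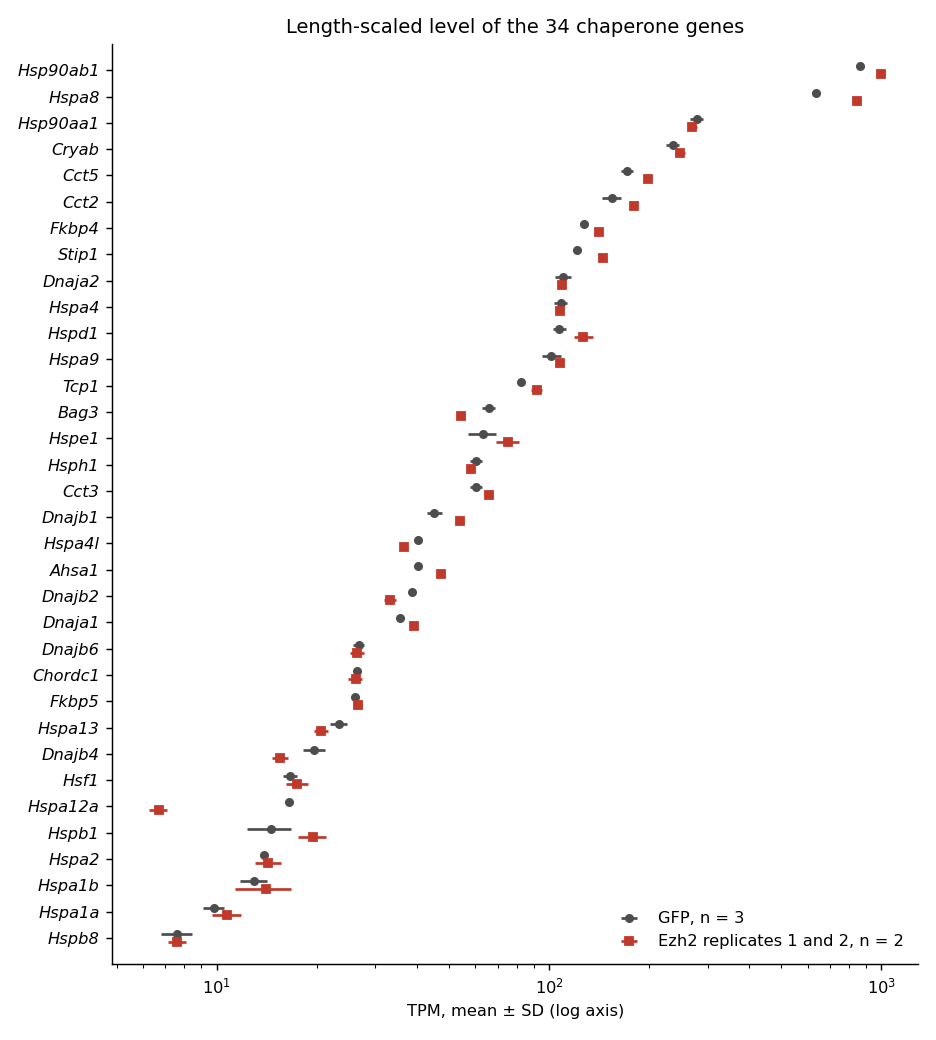
Mean level of each of the 34 genes in TPM (log axis) in the 3 GFP libraries (circles) and in Ezh2 replicates 1 and 2 (squares), with bars for the SD. Genes are ordered by their GFP mean, from *Hspb8* at 7.60 TPM to *Hsp90ab1* at 862 TPM; the gap between the symbols is widest for *Hspa12a*.

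Library totals ranged from 30569933 to 35971192 counts, and the lowest count of any member in any library was 116. *Ezh2* itself was at 28.8, 34.6 and 33.0 CPM (a gene's count scaled by its library's total) in GFP replicates 1 to 3 and at 78.0, 65.3 and 105 CPM in Ezh2 replicates 1 to 3. The study left out 1 Ezh2 library, inferred here to be replicate 3, so 5 libraries form the main comparison and all 6 are given beside it. RGC markers (11 genes) summed to only 140.3 to 144 CPM in the GFP libraries and to 171, 157 and 172 CPM in Ezh2 replicates 1 to 3, and *Slc17a6*, the vesicular glutamate transporter of RGCs, was at 4.09, 4.42 and 4.98 and 5.74, 4.88 and 8.17 CPM. Most of these sums came from *Thy1*, the gene of the CD90 antigen used for the sort. *Thy1* was at 92.6, 87.2 and 90.3 CPM in the GFP libraries and at 109, 98.9 and 114 CPM in the Ezh2 libraries. Müller glia markers (8 genes) summed to 30247 to 30885 CPM in the GFP libraries and to 28727, 30557 and 23401 CPM in the Ezh2 libraries, so that the sorted cells held much glial RNA despite their label. Of these 8 genes 5 were lower at an adjusted p under 0.05 (62.5%, against 7.68% of all genes) and *Apoe*, which microglia and astrocytes also express, was called higher. Without *Apoe* the sums were 24611 to 25396 CPM in the GFP libraries and 20267, 20919 and 16298 CPM in the Ezh2 libraries, without overlap. T cell markers (10 genes) summed to 443 to 473 CPM in the GFP libraries and to 596, 553 and 1383 CPM in the Ezh2 libraries, and cell cycle genes (10 genes) to 234 to 262 and to 326, 289.5 and 497 CPM. Ezh2 replicate 3 stands apart from replicates 1 and 2 in both. At an adjusted p under 0.05 in the 5 libraries (background 10.1%), 5 of 7 rod markers (71.4%) and all 6 cone markers were higher. So were 6 of 8 microglia and macrophage markers (75%), and none of these lists held a lower one. Rod markers summed to 395 to 465 CPM in the GFP libraries and to 705, 748 and 416 CPM in the Ezh2 libraries. Of 5 astrocyte markers 1 was higher (20%), and of 6 endothelial and mural markers 1 was lower (16.7%). In such bulk samples fewer cells of a type and less RNA per cell cannot be told apart.

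Compared to the control, 14 of the 34 members rose by small amounts in the 5 libraries, among them both mitochondrial chaperonin genes and all 4 subunits of the cytosolic chaperonin, and the Hsp70 relative *Hspa12a* fell. *Dnajb4* and *Bag3* also fell, none of the Hsp110 genes or small heat shock proteins passed the test, and 4 of the rises passed when Ezh2 replicate 3 was included. With the limits set at 0.05 for the adjusted p and at 1.5 for the fold change, 1 of 34 members (2.94%) was called, against a background of 3.8% of all tested genes. At an adjusted p under 0.05 with no limit on size, 14 of 34 members (41.2%) were higher in the Ezh2 libraries, against 10.1% of all genes, and 3 of 34 (8.82%) were lower, against 7.68%. The rises were between 1.12-fold and 1.39-fold. The median log2 fold change over the 34 members was 0.16, against -0.0078 over all tested genes. Adjusted p values are those of the edgeR quasi-likelihood F test after Benjamini-Hochberg adjustment over 20241 genes, and they measure the spread between these libraries, which the labels do not tie to separate animals.

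The groups did not overlap in CPM for 18 members with the Ezh2 libraries higher (52.9%, against 21.5% of all genes) and for 5 with them lower (14.7%, against 23.4%). With Ezh2 replicate 3 included, *Hspa12a* was again the 1 called member (2.94%, background 2.52% in either direction, 1.62% higher and 0.902% lower). At an adjusted p under 0.05 of that comparison, 5 members remained (14.7%, background 5.78%). *Hspa8*, *Dnajb1*, *Ahsa1* and *Stip1* were higher (11.8%, background 3.08%) and *Hspa12a* lower (2.94%, background 2.7%). The biological coefficient of variation of the fit was 0.0846 in the 5 libraries and 0.184 in all 6. Across all 6 libraries the groups did not overlap for 16 members with Ezh2 higher (47.1%, background 14.9%) and 5 lower (14.7%, background 19.3%). Replicate 3 was the highest of the 6 libraries in 20 members (58.8%), against 25.5% of all genes, and the lowest in 10 members (29.4%), against 38.6%. Leaving single libraries out of the 6 took the 4 higher members to 0 without GFP replicate 1 or GFP replicate 3, where 0.365% and 0.429% of all genes were higher, and to 1 without GFP replicate 2 (0.76% of all genes). The number was 2 without Ezh2 replicate 1 (1.95% of all genes) or Ezh2 replicate 2 (2.2%). The members' loss thus came with a loss of calls over all genes. Leaving GFP replicate 1 or Ezh2 replicate 1 out of the 5 took the 3 lower members to 1 (6.68% and 5.97% of all genes).

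**Figure D2:**
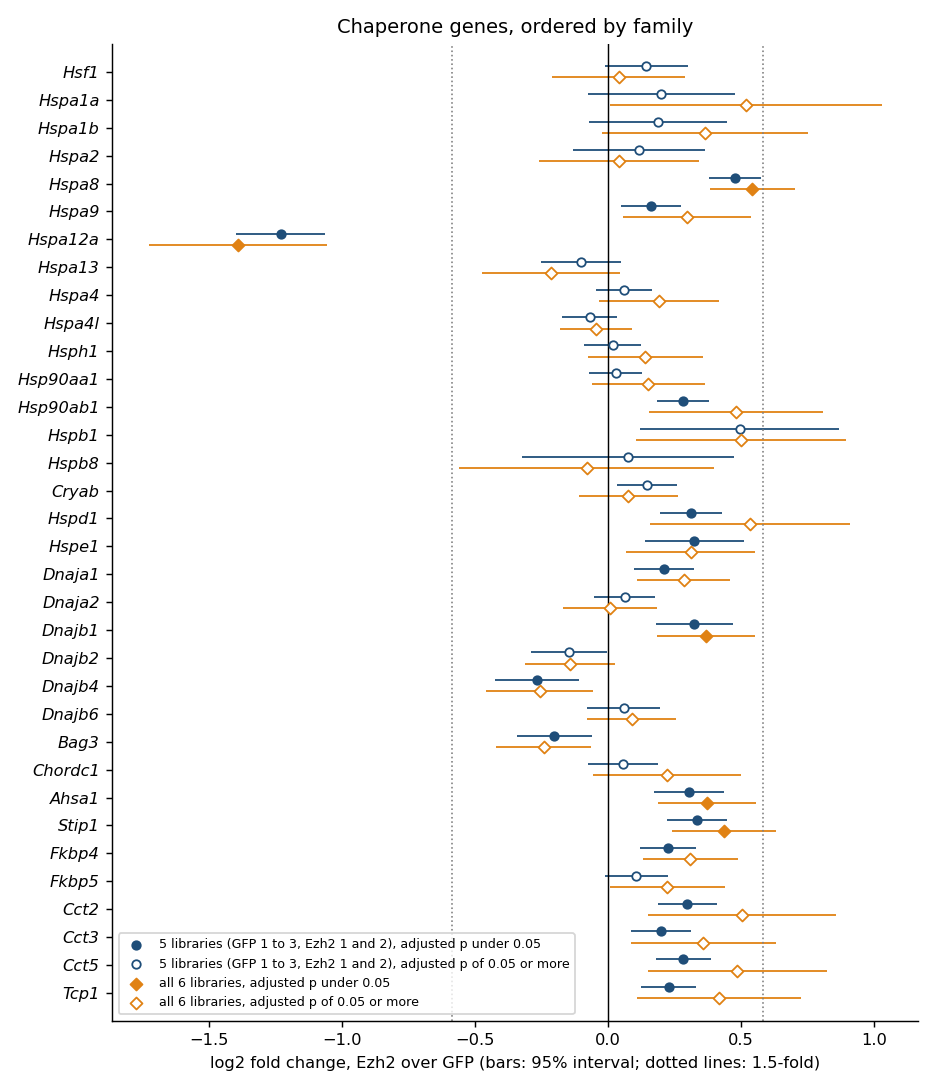
Log2 fold change of each member, Ezh2 over GFP, with its 95% interval, from the 5 libraries (blue circles) and from all 6 (orange diamonds); filled symbols have an adjusted p under 0.05, and dotted lines mark 1.5-fold. *Hspa12a* at -1.23 is the only member past a dotted line with a filled symbol, and the intervals of the cytosolic chaperonin subunits widen when Ezh2 replicate 3 enters.

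*Hspa12a* encodes a distant relative of Hsp70 with an atypical ATP-binding domain (chr19:58795750-58943654, minus strand, GRCm38). It was at 48.5, 50.2 and 45.8 CPM in GFP replicates 1 to 3 and at 21.2, 19.6 and 13.1 CPM in Ezh2 replicates 1 to 3. Every Ezh2 library lay below every GFP library, and replicate 3 was the lowest. It fell by 2.35-fold in the 5 libraries (log2 fold change -1.23 ± 0.082 SE, 95% interval -1.40 to -1.06, edgeR adjusted p = 2.23e-12) and by 2.62-fold in all 6 (-1.39 ± 0.15 SE, edgeR adjusted p = 0.002). None of its 50-base windows occur in another annotated gene, but its exons overlap those of the antisense gene *Eno4* (chr19:58943425-58971421), which was at 0.556, 0.190 and 0.358 CPM in the GFP libraries and at 0.373, 0.285 and 0.0278 CPM in the Ezh2 libraries. Amacrine cell markers (7 genes, 6 tested, 2 lower at an adjusted p under 0.05, 33.3% against a background of 7.68%) summed to 79.6, 67.6 and 69.4 CPM in the GFP libraries and to 49.5, 44.9 and 47.6 CPM in the Ezh2 libraries. The 2 were *Slc6a9* (means 53.3 CPM in GFP, 37.8 CPM in Ezh2 replicates 1 and 2) and *Tfap2b* (10.8 and 1.61 CPM). Of the 6 tested, 5 had a negative log2 fold change in the 5 libraries. *Gad1* had a positive one (0.73) and was at 12.1 CPM in Ezh2 replicate 3. The part of amacrine cells in the fall of *Hspa12a* was not tested.

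*Hspa8* (chr9:40800984-40810087, plus strand), which drives most cytosolic Hsp70 cycles and the uncoating of clathrin vesicles, was the member with the next clearest difference. It was at 884, 859.7 and 867 CPM in the GFP libraries and at 1205, 1199 and 1293 CPM in the Ezh2 libraries. The libraries within a group were close and the groups well apart. It rose 1.39-fold in the 5 libraries (log2 fold change 0.48 ± 0.048 SE, edgeR adjusted p = 1.30e-08) and 1.46-fold in all 6 (edgeR adjusted p = 0.00444). With 1 GFP library left out of the 6, the edgeR adjusted p was 0.0555 without replicate 1 and 0.0534 without replicate 3. The processed pseudogene *Gm15459* (chr5:5781615-5783555, minus strand), which was looked at after its values were seen, holds 45.3% of the 50-base windows of *Hspa8* and was lower in every Ezh2 library. It was at 134, 137 and 131 CPM in the GFP libraries and at 94.0, 89.1 and 72.8 CPM in the Ezh2 libraries (log2 fold change -0.54 ± 0.054 SE, edgeR adjusted p = 1.02e-08). How reads were divided between the gene and its copies is not known here, and the summed counts of *Hspa8* and 4 such copies gave a log2 fold change of 0.38 (edgeR adjusted p = 8.91e-07).

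*Hspa1a* and *Hspa1b* (chr17:34969190-34972156 and chr17:34956436-34959238, minus strand) encode nearly the same stress-inducible Hsp70, and are among the genes most often seen to rise when tissue is warmed or digested. *Hspa1a* was at 9.03, 10.2 and 8.56 CPM in the GFP libraries and at 11.3, 9.88 and 17.3 CPM in the Ezh2 libraries. *Hspa1b* was at 12.3, 10.5 and 11.8 CPM in the GFP libraries and at 14.7, 11.4 and 17.0 CPM in the Ezh2 libraries. In both genes 1 of the Ezh2 libraries fell within the GFP range and replicate 3 was the highest of all. The difference in the 5 libraries did not pass the test for *Hspa1a* (log2 fold change 0.20, 95% interval -0.076 to 0.48, edgeR adjusted p = 0.348) or for *Hspa1b* (0.19, -0.071 to 0.45, adjusted p = 0.347). In all 6 libraries the values were 0.52 (adjusted p = 0.199) and 0.37 (adjusted p = 0.227). As 60.4% and 62.3% of their 50-base windows occur in another gene, mostly in each other, the split between them is uncertain.

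The other Hsp70 genes moved little. *Hspa9*, the mitochondrial Hsp70 mortalin that pulls proteins into the matrix, was at 131.4 to 148 CPM in the GFP libraries and at 152, 157 and 189 CPM in the Ezh2 libraries. Its 1.12-fold rise (edgeR adjusted p = 0.0375) did not hold without GFP replicate 2 (adjusted p = 0.231), GFP replicate 3 (0.101) or Ezh2 replicate 2 (0.214). The fold was larger in all 6 libraries, 1.23, with an adjusted p of 0.133. *Hspa2*, known from the testis, differed by 0.12 on the log2 scale (95% interval -0.13 to 0.36, edgeR adjusted p = 0.576). *Hspa13* differed by -0.10 (95% interval -0.25 to 0.048, edgeR adjusted p = 0.385).

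**Figure D3:**
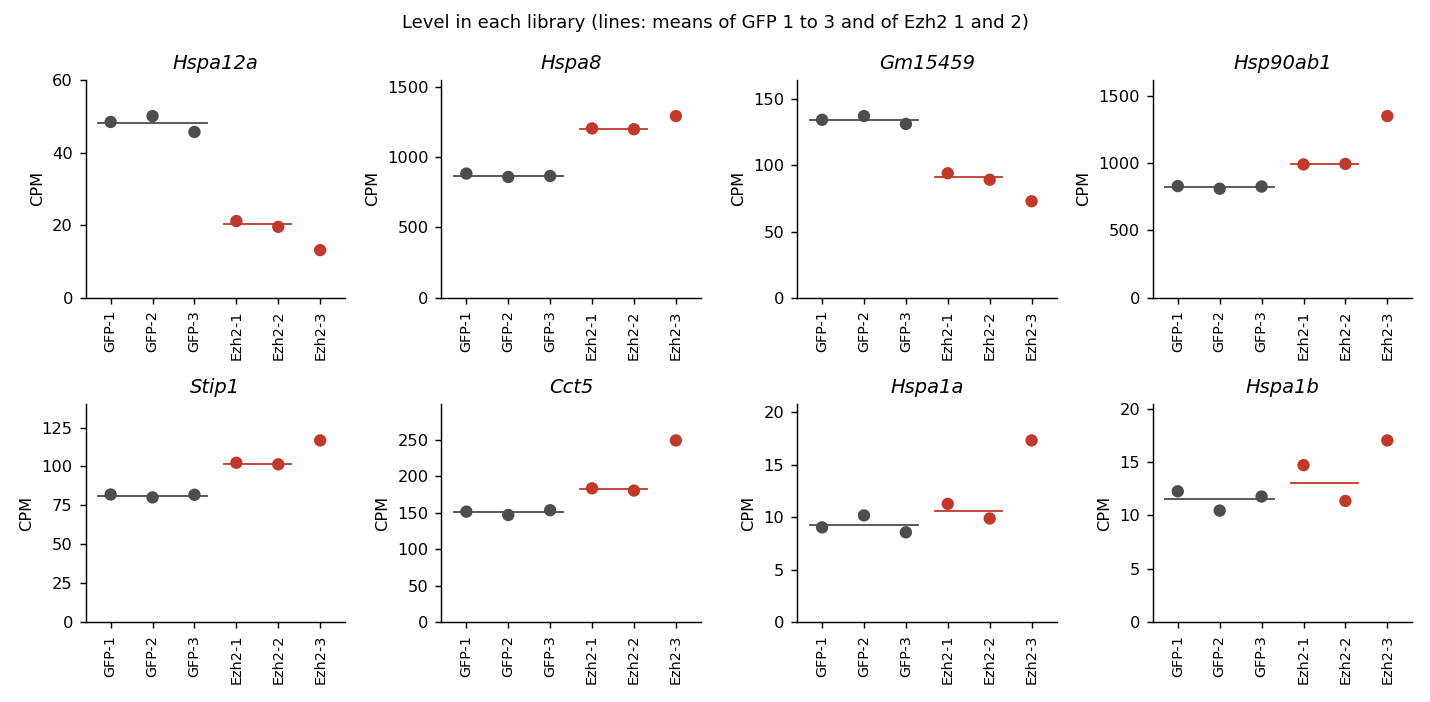
CPM of 7 members and of the *Hspa8* pseudogene *Gm15459* in each library (GFP grey, Ezh2 red; axes start at 0), with lines at the means of GFP replicates 1 to 3 and of Ezh2 replicates 1 and 2. *Hspa12a* and *Gm15459* are lower in every Ezh2 library, and *Hspa8*, *Hsp90ab1*, *Stip1* and *Cct5* are higher. Ezh2 replicate 3 is the highest library in every panel but *Hspa12a* and *Gm15459*, with *Hsp90ab1*, *Cct5* and *Hspa1a* at 1349, 249 and 17.3 CPM.

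The Hsp110 genes, whose products exchange the nucleotide of Hsp70 and help it pull aggregates apart, showed no change that passed the test. *Hspa4*, the most abundant of the 3 per length, was at 199, 185 and 187 CPM in the GFP libraries and at 196, 199 and 239 CPM in the Ezh2 libraries. *Hsph1*, the inducible Hsp105, was at 145, 135 and 138 CPM and 141, 139.6 and 167 CPM in the same order. *Hspa4l* was at 153, 152 and 149 CPM and 142, 145 and 142 CPM. The groups overlapped for *Hspa4* and *Hsph1*, while *Hspa4l* was lower in every Ezh2 library by a small margin. The 95% intervals of the log2 fold changes in the 5 libraries were -0.043 to 0.17, -0.089 to 0.13 and -0.17 to 0.036, all inside 1.5-fold.

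Of the 2 cytosolic Hsp90 genes, the constitutive one rose. *Hsp90ab1* (chr17:45567775-45573271, minus strand) was at 829, 809.7 and 825 CPM in the GFP libraries and at 989.8, 993 and 1349 CPM in the Ezh2 libraries. *Hsp90aa1*, which HSF1 raises under stress, was at 357, 336 and 349 CPM in the GFP libraries and at 357, 346 and 420.3 CPM in the Ezh2 libraries. The constitutive gene rose 1.22-fold (log2 fold change 0.28 ± 0.048 SE, edgeR adjusted p = 6.20e-05), and with replicate 3 the value was 0.48 ± 0.14 (adjusted p = 0.0937). The inducible gene differed by 0.029 (95% interval -0.072 to 0.13, edgeR adjusted p = 0.751). The CPM ratio of *Hsp90aa1* to *Hsp90ab1* was 0.430, 0.415 and 0.423 in the GFP libraries and 0.361, 0.349 and 0.312 in the Ezh2 libraries, without overlap, and the difference between the genes was not tested. *Hsp90aa1* shares 58.5% of its 50-base windows with other genes, mostly with a processed copy at a low count.

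Among the partners of Hsp90, *Stip1*, *Ahsa1* and *Fkbp4* rose. *Stip1* encodes Hop, which bridges Hsp70 and Hsp90, and was at 81.9, 80.1 and 81.8 CPM in the GFP libraries and at 102, 101 and 117 CPM in the Ezh2 libraries. *Ahsa1*, the activator of the Hsp90 ATPase, was at 57.8, 56.9 and 54.0 CPM and 68.7, 69.1 and 74.4 CPM. Every Ezh2 library lay above every GFP library in both, and both passed in the 5 libraries (log2 fold changes 0.34 ± 0.055 and 0.30 ± 0.064 SE, edgeR adjusted p = 3.94e-05 and 0.0008) and in all 6 (adjusted p = 0.023 and 0.0322). *Fkbp4*, an immunophilin of steroid receptor complexes and the most abundant cochaperone per length in the GFP libraries, was at 115, 112 and 112 CPM in the GFP libraries and at 131, 131 and 146 CPM in the Ezh2 libraries. Its rise of 1.17-fold (edgeR adjusted p = 0.00197) was at an adjusted p of 0.0532 in all 6 libraries. *Fkbp5*, its glucocorticoid-induced relative, differed by 0.11 on the log2 scale (95% interval -0.011 to 0.22, edgeR adjusted p = 0.223).

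The 2 remaining cochaperones belong to the heat shock response proper. *Bag3*, which couples Hsp70 and small heat shock proteins to autophagy, was at 52.4, 53.3 and 55.2 CPM in the GFP libraries and at 46.3, 46.3 and 40.0 CPM in the Ezh2 libraries. *Chordc1*, an Hsp90-binding protein, was at 63.5, 63.9 and 61.8 CPM and 62.5, 67.7 and 84.0 CPM. *Bag3* was lower in every Ezh2 library, and its fall of 1.15-fold passed in the 5 libraries (edgeR adjusted p = 0.0396) but not without any of these 5 (adjusted p between 0.0535 without GFP replicate 1 and 0.149 without Ezh2 replicate 1). *Chordc1* overlapped between the groups and did not pass (log2 fold change 0.058, 95% interval -0.075 to 0.19, edgeR adjusted p = 0.612), with Ezh2 replicate 3 the highest.

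The J-domain proteins moved in both directions. *Dnaja1* was at 101, 97.4 and 95.2 CPM in the GFP libraries and at 112, 113 and 123 CPM in the Ezh2 libraries. *Dnajb1*, the Hsp40 that HSF1 induces together with Hsp70 and that feeds back on HSF1, was at 48.9, 44.7 and 44.4 CPM and 56.5, 57.9 and 59.1 CPM. *Dnajb4*, its close relative, was at 59.7, 54.0 and 50.7 CPM and 43.1, 47.3 and 43.6 CPM. The first 2 were higher and the last was lower in every Ezh2 library. *Dnaja1* rose 1.16-fold and *Dnajb1* 1.25-fold (edgeR adjusted p = 0.00562 and 0.00104), while *Dnajb4* fell 1.20-fold (adjusted p = 0.0135). *Dnajb1* alone of the 3 also passed in all 6 libraries (adjusted p = 0.0336). The fall of *Dnajb4* did not pass without GFP replicate 1 (adjusted p = 0.0955) or Ezh2 replicate 1 (0.173).

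The constitutive J-domain genes did not pass. *Dnaja2*, the most abundant per length, was at 111, 101 and 101 CPM in the GFP libraries and at 108, 108 and 90.5 CPM in the Ezh2 libraries, which overlapped. *Dnajb2*, a neuronal cochaperone that hands substrates to the proteasome, was at 50.1 to 53.4 CPM in the GFP libraries and at 48.0, 45.8 and 44.4 CPM in the Ezh2 libraries (log2 fold change -0.15, 95% interval -0.29 to -0.0037, edgeR adjusted p = 0.158). *Dnajb6*, a suppressor of amyloid aggregation, differed by 0.06 (95% interval -0.078 to 0.20, edgeR adjusted p = 0.616), and shares 35.8% of its windows with nearly silent copies.

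Small heat shock proteins hold unfolded proteins without ATP. *Cryab* was at 106, 112 and 113 CPM in the GFP libraries and at 118, 125 and 98.4 CPM in the Ezh2 libraries. *Hspb1* (Hsp25), known to rise in injured RGCs, was at 5.27, 4.01 and 5.01 CPM and 6.15, 7.16 and 6.37 CPM. *Hspb8*, the partner of *Bag3*, was at 4.58, 5.37 and 4.20 CPM and 4.69, 5.17 and 3.22 CPM. *Hspb1* was higher in every Ezh2 library, *Cryab* only in replicates 1 and 2, and *Hspb8* overlapped between the groups. *Hspb1* had the largest positive estimate of all members, 1.41-fold, with a wide interval (0.12 to 0.87 on the log2 scale) and an edgeR adjusted p of 0.0595, which was 0.0474 without GFP replicate 1. *Cryab* had an adjusted p of 0.0609, which was 0.0199 without Ezh2 replicate 1 and 0.584 in all 6 libraries. The exons of *Cryab* overlap those of the antisense gene *Hspb2*, and the use of strand in counting is not given in the sources used here.

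The mitochondrial chaperonin genes, which sit head to head on chromosome 1, rose together. *Hspd1* (Hsp60, the chamber) was at 94.9, 88.1 and 87.4 CPM in the GFP libraries and at 116, 107 and 157 CPM in the Ezh2 libraries. *Hspe1* (Hsp10, its lid) was at 32.8, 29.8 and 26.4 CPM and 34.5, 39.2 and 33.8 CPM. The groups did not overlap in either gene, and replicate 3 stood far above the other libraries in *Hspd1* but between them in *Hspe1*. The rises were 1.24-fold and 1.25-fold in the 5 libraries (edgeR adjusted p = 0.000148 and 0.011). With replicate 3 included the log2 fold changes were 0.53 and 0.31, against 0.31 and 0.33 in the 5, and the adjusted p values were 0.103 and 0.122. That of *Hspe1* was 0.0823 without GFP replicate 3 and 0.227 without Ezh2 replicate 2 of the 5. Their exons overlap on opposite strands.

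The 4 subunits of the cytosolic chaperonin TRiC, which folds actin and tubulin, all rose. *Cct5*, the most abundant of the 4 per length, was at 152, 147 and 154 CPM in the GFP libraries and at 184, 181 and 249 CPM in the Ezh2 libraries. *Cct2*, *Cct3* and *Tcp1* lay at 119 to 133 CPM in the GFP libraries, at 135 to 156 CPM in Ezh2 replicates 1 and 2 and at 211, 178 and 205 CPM in replicate 3. The groups were apart in each subunit, and replicate 3 was far above the rest. In the 5 libraries the rises were 1.22-fold for *Cct5*, 1.23-fold for *Cct2*, 1.17-fold for *Tcp1* and 1.15-fold for *Cct3* (edgeR adjusted p = 9.98e-05, 0.000154, 0.00143 and 0.00966). That of *Cct3* was not passed without GFP replicate 2 (0.0638), GFP replicate 3 (0.0573) or Ezh2 replicate 2 (0.136). With replicate 3 included, the folds were larger and their spread wider, with log2 fold changes of 0.49 for *Cct5*, 0.50 for *Cct2*, 0.42 for *Tcp1* and 0.36 for *Cct3*, against 0.28, 0.30, 0.23 and 0.20 in the 5, and adjusted p values between 0.0986 and 0.116. The sums of T cell markers and of cell cycle genes were highest in replicate 3 as well (in the 5 libraries 7 of 10 genes of each list, 70.0%, were higher at an adjusted p under 0.05, background 10.1%), and their part in the level of the chaperonin was not tested.

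*Hsf1*, the activator of the response, was at 39.0, 36.1 and 37.5 CPM in the GFP libraries and at 43.1, 39.2 and 30.8 CPM in the Ezh2 libraries. It was higher than every GFP library in Ezh2 replicates 1 and 2 and lower in replicate 3. The difference did not pass (log2 fold change 0.14, 95% interval -0.012 to 0.30, edgeR adjusted p = 0.211). HSF1 is controlled largely at its protein, which RNA levels do not read.

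The inducible and constitutive members were set side by side as a check on tissue handling, since a stress response during dissociation would be read mainly in the inducible genes. All 6 libraries came from digested and sorted retinas, so stress shared by both groups is not visible in this comparison. A difference in handling between the groups cannot be told apart from the effect of the virus. At an adjusted p under 0.05 in the 5 libraries, where 10.1% of all genes were higher and 7.68% lower, 5 of the 16 inducible members rose (31.2%), 2 fell (12.5%) and 9 did not pass, with a median log2 fold change of 0.17. Of the 17 constitutive members 9 rose (52.9%), 1 fell (5.88%) and 7 did not pass, with a median of 0.16. The inducible class held *Hspa1a*, *Hspa1b*, *Hsph1*, *Hspa4l*, *Hsp90aa1*, *Hspb1*, *Hspb8*, *Cryab*, *Dnaja1*, *Dnajb1*, *Dnajb4*, *Bag3*, *Chordc1*, *Ahsa1*, *Hspd1* and *Hspe1*. *Fkbp5* was kept apart as glucocorticoid-induced, and all other members were taken as constitutive. *Stip1* and *Fkbp4*, which both rose, thus counted as constitutive, and a division with them as inducible was not tried. In all 6 libraries the medians were 0.25 and 0.30. For the 8 genes most strictly tied to heat shock (*Hspa1a*, *Hspa1b*, *Hsph1*, *Dnajb1*, *Hspb1*, *Bag3*, *Chordc1* and *Hsp90aa1*) the median was 0.12, with 1 that rose, 1 that fell (12.5% each) and 6 that did not pass. The counts and medians are descriptions without a test.

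Per library the mean log2(CPM + 1) of the inducible members minus that of the constitutive members was -1.15, -1.14 and -1.18 in GFP replicates 1 to 3 and -1.13, -1.11 and -1.09 in Ezh2 replicates 1 to 3. The difference was less negative in every Ezh2 library, but this direction rested on *Hspa12a*. With this gene left out of the constitutive class, which was tried after the values were seen, the difference was -1.22, -1.21 and -1.25 in the GFP libraries and -1.27, -1.27 and -1.28 in the Ezh2 libraries, more negative in each of the latter. *Hspa1a* and *Hspa1b* together came to 2.41, 2.40 and 2.35% of the *Hspa8* CPM in the GFP libraries and to 2.16, 1.77 and 2.66% in the Ezh2 libraries. This share was lower than in every GFP library in Ezh2 replicates 1 and 2 and higher in replicate 3. The summed CPM of *Hspa1a* and *Hspa1b* was 21.3, 20.6 and 20.3 in the GFP libraries and 26.0, 21.2 and 34.4 in the Ezh2 libraries. The lower share in Ezh2 replicates 1 and 2 thus came with a higher *Hspa8*, not with a lower sum. Among the 27 members with a promoter window, the 15 with a 2-unit heat shock element had a median log2 fold change of 0.20. The 12 without had a median of 0.11. The 5 with the 3-unit element had a median of 0.060, and the 22 without it had a median of 0.19. *Hspa8*, *Hsp90ab1*, *Hsp90aa1*, *Cryab*, *Hspa9*, *Hspa13* and *Hsf1* had no window and are not in these medians.

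**Figure D4:**
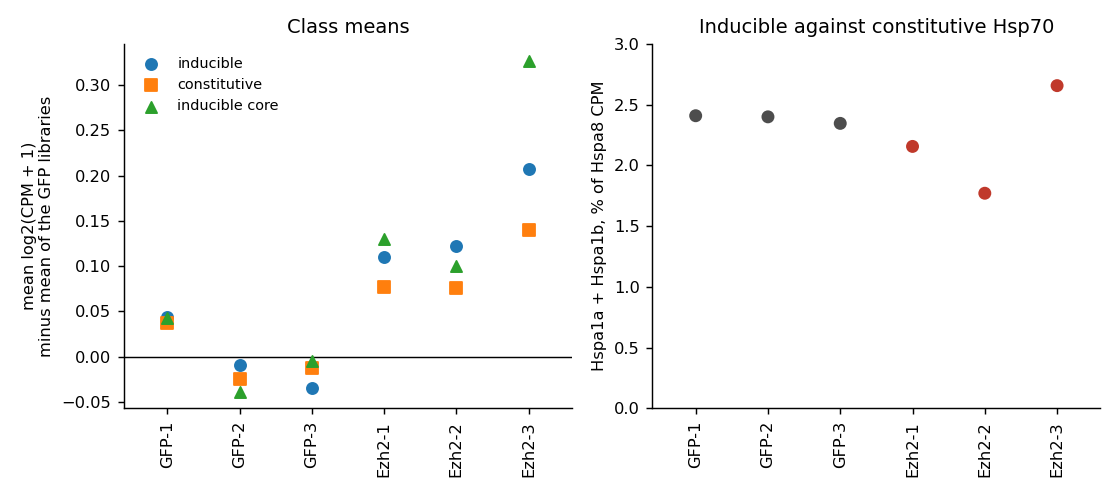
Left, the mean log2(CPM + 1) of 16 inducible, 17 constitutive and 8 strictly inducible members in each library, as the difference from the mean of the 3 GFP libraries; right, *Hspa1a* plus *Hspa1b* as a percentage of *Hspa8* CPM (axis from 0). The classes rise together in the Ezh2 libraries, the strictly inducible genes are highest in Ezh2 replicate 3, and the share on the right runs from 1.77% in Ezh2 replicate 2 to 2.66% in Ezh2 replicate 3.

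Genes known to be switched on by tissue dissociation did differ between the groups. Of 16 such genes (*Fos*, *Junb*, *Egr1* and others, most of them immediate early genes) 8 were called higher (50%, against 2.52% of all genes) and 14 were higher at an adjusted p under 0.05 (87.5%, against 10.1%). Their CPM summed to 1466, 1446 and 1330.3 in the GFP libraries and to 2403, 2229 and 2561 in the Ezh2 libraries, without overlap. Their median log2 fold change was 0.56, beside 0.17 for the inducible chaperones. Whether these genes differed through handling or through *Ezh2* overexpression was not tested, and neither was their part in the rises of the chaperones.

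The rest of the folding pathway was read from 63 further genes, of which 62 were tested. At the limits with a fold change above 1.5, 3 were higher and 1 was lower in the 5 libraries (4.84% and 1.61% of 62, background 2.52% and 1.28%). The higher ones were *Hmox1* (heme oxygenase), at 15.8, 14.9 and 13.9 CPM in the GFP and 22.4, 28.5 and 19.5 CPM in the Ezh2 libraries, and the metallothioneins *Mt1* and *Mt2*, with log2 fold changes of 0.65 ± 0.059 and 0.75 ± 0.10 SE (edgeR adjusted p = 2.65e-06 for *Hmox1*, 1.55e-08 and 0.00093). These 3 answer to oxidative and metal stress and encode no chaperone. The lower one was *Cryaa*, alphaA-crystallin of the lens, at 2.75, 0.853 and 1.04 CPM in the GFP and 0.528, 0.343 and 0.278 CPM in the Ezh2 libraries (edgeR adjusted p = 0.0107), and the other 7 lens markers summed to 3.32 to 6.15 CPM and to 3.23, 2.94 and 2.17 CPM. In all 6 libraries *Hmox1* and *Mt2* were called higher (3.28% of 61, background 1.62%) and *Dnajc6* (auxilin) lower (1.64%, background 0.902%). At an adjusted p under 0.05 without a limit on size, 12 were higher (19.4%, background 10.1%) and 2 lower (3.23%, background 7.68%) in the 5 libraries, 3 were higher (4.92%, background 3.08%) and 1 lower (1.64%, background 2.7%) in all 6, and the 5-library median log2 fold change was 0.093.

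By group, *Cct4*, *Cct6a* and *Cct8* rose among the other TRiC subunits (log2 fold changes 0.29, 0.18 and 0.22, edgeR adjusted p = 0.000252, 0.0186 and 0.00475), while *Cct7* was at 0.13 (adjusted p = 0.0704). Of the 10 genes of that group, which includes prefoldin, 3 rose, 0 fell and 7 did not pass. Of the 10 other Hsp90 cochaperones 2 rose (*Cdc37* and *Fkbp8*), and of the 10 other Hsp70 and nucleotide exchange genes 2 rose (*Bag1* and *Stub1*). None of these 7 genes passed in all 6 libraries, with adjusted p values from 0.0522 for *Bag1* to 0.171 for *Cct4*, while the *Cct4*, *Cct6a* and *Cct8* log2 fold changes were 0.58, 0.30 and 0.38. Of 11 other J-domain genes 1 fell (*Dnajc6*), and of 4 heat shock factor genes and 4 mitochondrial partners none passed.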

How the data were processed

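Cells sorted from retinas after AAV2-*GFP* or AAV2-*Ezh2* injection and optic nerve crush were profiled with a stranded total RNA kit. The deposited table holds raw read counts per Ensembl gene made by the authors for 6 libraries (3 per group). The submitters' processing notes name GRCm38 and STAR 2.7.0d; the counting program, annotation and strand setting were not given in the sources used here. 0 count columns lacked a sample. Symbols, coordinates and exon lengths came from GENCODE M21, which matched 55480 of 55573 identifiers.

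The study left out 1 Ezh2 library after clustering; its heatmaps show Ezh2 replicates 1 and 2, so that replicate 3 was taken as the excluded one. Counts of GFP replicates 1 to 3 and Ezh2 replicates 1 and 2 were filtered with filterByExpr, scaled with TMM and tested in edgeR 4.0.16 (R 4.3.3; glmQLFit with robust = TRUE, two-sided quasi-likelihood F test), and p values were adjusted after Benjamini and Hochberg over all tested genes. Called genes had an adjusted p below 0.05 together with more than 1.5-fold change. CPM used library totals, and class means used log2(CPM + 1). Values are given as mean ± SD of libraries, and log2 fold changes with their SE or 95% interval. Totals ranged from 30569933 to 35971192; a count of 0 would allow up to 3 counts (0.0834 to 0.0981 CPM), a floor for counting error only, as reads carry no molecular identifiers. On counts simulated for this comparison (20038 genes), 99 of 100 genes changed by 1 and 100 of 100 changed by 2 on the log2 scale were recovered, with 5 false calls. The changed genes were drawn from those with a mean of at least 100 counts. Changes as small as the rises of the members were not simulated.

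The members and lists were chosen with earlier results of these data known. Named with values in every library are called members, inducible members and the most abundant member of each role, as well as others that passed; other genes were named where called or passing. Genes sharing sequence were found as 50-base windows of a member's transcript that occur in another annotated gene. The fit was repeated with all 6 libraries, without each library, with a replicate block, with DESeq2 1.42.0, RLE factors, library totals alone, no filter, a mean of at least 50 counts, and, chosen after seeing the data, counts summed with genes sharing at least 10% of the windows. No sign of pairing by replicate number was seen. Pictures used matplotlib 3.10.9.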

Additional observations from a re-analysis of the deposited data

Results flagged for a closer look

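Outside the main comparison, Ezh2 replicate 3 held 6 members at more than 1.5 times the highest GFP library. These were *Hspa1a* at 17.3 CPM, *Hsp90ab1* at 1349 CPM, *Hspd1* at 157 CPM, *Cct2* at 211 CPM, *Cct5* at 249 CPM and *Tcp1* at 205 CPM. The highest GFP libraries held 10.2, 829, 94.9, 133, 154 and 132 CPM of the same genes, and the higher of Ezh2 replicates 1 and 2 held 11.3, 993, 116, 155, 184 and 156 CPM. T cell markers summed to 1383 CPM in this library, against 443 to 473 CPM in the GFP libraries. No explanation of these levels was tested.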

How the results depend on the processing

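*Hspa12a* was the 1 called member under every one of the 19 alternatives, with log2 fold changes from -1.51 to -1.19 and adjusted p values up to 0.0284. The counts of members at an adjusted p under 0.05 depended on the libraries. They were 4 higher and 1 lower in all 6 libraries and 2 higher and 1 lower with the replicate block on all 6, and with single libraries left out they ranged from 0 to 15 higher and from 1 to 2 lower, the range of the 5-library and 6-library comparisons together. The inducible median log2 fold change was 0.25 in all 6 libraries and 0.25 with the block on these, and it ranged from 0.14 to 0.33 with single libraries left out. The constitutive median was 0.30, 0.29 and 0.12 to 0.35 in the same settings. The called genes of the further pathway list ranged from 0 to 5 with single libraries left out, and were 2 without Ezh2 replicate 2 of the 5 libraries. The cause of these shifts was not tested.

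*Hspb8* turned to -0.080 in all 6 libraries, -0.00082 with the replicate block on the 5 and -0.093 with the block on all 6, and ranged from -0.22 to 0.18 with single libraries left out. With single libraries left out *Hsph1* ranged from -0.0046 to 0.20, *Hspa2* from -0.061 to 0.23, *Chordc1* from -0.016 to 0.33, *Dnaja2* from -0.026 to 0.11 and *Hsf1* from -0.046 to 0.20, and none of these 6 passed the test under any setting. Same-numbered libraries did not deviate together (correlations -0.0045, -0.020 and -0.0099). The deviations were taken from group means that included Ezh2 replicate 3, which could hide a pairing. They thus do not settle whether the libraries were paired. With the block on the 5 libraries 10 members were higher and 2 lower. DESeq2, RLE factors, both other filters and the summed counts changed no call or direction of any member, and library totals alone took *Hspa9* to an adjusted p of 0.0512. With 1 Ezh2 library left, its spread was assumed to match that of the GFP libraries.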

Other observations

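*Gm15459* is annotated as a processed pseudogene of *Hspa8* on chromosome 5. Its CPM came to 15.2, 15.95 and 15.1% of that of *Hspa8* in GFP replicates 1 to 3 and to 7.80, 7.43 and 5.63% in Ezh2 replicates 1 to 3, with no overlap between the groups. The other copies of *Hspa8* that share at least 10% of its windows averaged under 1 CPM over the 6 libraries. In all 6 libraries *Gm15459* was called lower (log2 fold change -0.62, edgeR adjusted p = 0.00509), while in the 5 libraries it passed on p but not on size. Whether its reads came from a transcript of its own or from *Hspa8* was not tested.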
